A study of Mus musculus with 16 samples.

Results

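Follistatin (Fst), follistatin-like 1 (Fstl1), the inhibin beta-subunit genes Inhba, Inhbb, Inhbc and Inhbe, the BMP ligands Gdf2 and Bmp6, and Tgfb1 were followed in the livers of female mice. These 9 genes encode ligands of the TGF-beta family, or proteins that bind them or are related to such proteins, and their products are secreted and could reach bone. They were chosen by name, and all 9 had a row among the 15544 genes of the table. All 9 passed the filter on low values, a level of 1 or more in at least 4 libraries, as 12704 genes did in all. Liver RNA of females aged 27 weeks gave 16 libraries, 4 in each of 4 groups: Esr1 fl/fl controls on chow (Control_Chow), Esr1 Nkx2-1Cre mutants on chow (Mutant_Chow), and the same genotypes after 17 weeks on a high-fat diet (Control_HFD and Mutant_HFD). Controls and mutants carry floxed Esr1, the gene of oestrogen receptor alpha, on a mixed CD-1;129P2 background. Mutants also carry a Cre driven by Nkx2-1, which is active in part of the hypothalamus, so the deletion is aimed at the brain and not at the liver. Liver Esr1 was present in all 16 libraries. Its level was 7.59 to 15.9 in controls and 8.02 to 19.6 in mutants on chow (log2 difference 0.17, unadjusted p = 0.632). On HFD it was 6.14 to 8.09 in controls but 6.42, 22.9, 21.1 and 20.5 in mutants 1 to 4 (1.06, SE 0.34, unadjusted p = 0.00742, limma adjusted p = 0.527).

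Ligands of the TGF-beta family are dimers that bind pairs of type I and type II receptors and act through SMAD proteins. Activins are dimers of inhibin beta subunits: Inhba gives activin A, Inhbb activin B, Inhbc activin C and Inhbe activin E, and the C and E subunits are made mainly by hepatocytes. Follistatin binds activins and blocks them, BMP9 (Gdf2) is a circulating ligand made by liver stellate cells, BMP6 from sinusoidal endothelium induces hepcidin in hepatocytes, and TGF-beta 1 is made by many cells, macrophages among them.

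Between diets, Inhba and its liver-enriched relatives Inhbc and Inhbe had differences of opposite sign, and for that reason the 250 bases before the annotated start of these 3 genes are shown. They are written 5′ to 3′ on the strand of the gene, from RefSeq (GRCm38.p6): Inhba at chr13:16011601-16011850 (plus strand), Inhbc at chr10:127370549-127370798 (minus strand) and Inhbe at chr10:127351849-127352098 (minus strand). Capitals mark a TATA motif.
Inhba: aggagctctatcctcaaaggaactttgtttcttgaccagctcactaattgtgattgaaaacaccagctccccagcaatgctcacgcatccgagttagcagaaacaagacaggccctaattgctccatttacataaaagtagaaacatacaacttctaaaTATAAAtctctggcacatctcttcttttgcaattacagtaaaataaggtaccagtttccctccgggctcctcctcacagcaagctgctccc
Inhbc: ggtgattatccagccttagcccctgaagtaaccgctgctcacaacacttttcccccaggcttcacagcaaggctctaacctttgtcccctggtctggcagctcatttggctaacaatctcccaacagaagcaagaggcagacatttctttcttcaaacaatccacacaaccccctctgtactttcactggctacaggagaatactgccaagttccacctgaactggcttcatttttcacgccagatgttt
Inhbe: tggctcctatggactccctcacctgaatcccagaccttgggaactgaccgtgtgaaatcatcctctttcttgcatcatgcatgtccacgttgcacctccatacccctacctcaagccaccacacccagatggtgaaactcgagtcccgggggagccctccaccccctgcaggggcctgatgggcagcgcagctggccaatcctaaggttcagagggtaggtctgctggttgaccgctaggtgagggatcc
Promoter entries matched 8 of the 9 members, all but Fst. On both strands of these 8 windows the search covered a cAMP response element (TGACGTCA), a FOXO motif (TGTTTAC), an AP-1 motif (TGANTCA), an oestrogen response element (GGTCA and TGACC with 3 bases between them), TATAAA, a BMP-responsive SMAD motif (GGCGCC), a SMAD box (GTCTAGAC) and an E-box (CACGTG). The matches found did not overlap each other. Inhba held TATAAA with its first base 91 bases before the start. Gdf2 held the same motif on the other strand, 107 bases before the start, and Bmp6 held CACGTG 127 bases before the start. TATAAA was present in 12.4% and CACGTG in 6.02% of 32851 mouse promoter windows of this length, and no other match was found in the 8 windows. The G and C content was 43.2% for Inhba, 48.8% for Inhbc and 58.8% for Inhbe, against a median of 52.4% over all windows.

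Levels below are TPM values (a share of all transcripts, corrected for length) that were scaled between libraries by the authors, and the depth behind them is unknown. In GENCODE on GRCm38, Inhbc (chr10:127356322-127370431, minus strand) and Inhbe (chr10:127348857-127354411, minus strand) are neighbours with 1910 bases between them. Inhba (chr13:16011851-16031621, plus strand), Fst (chr13:114452290-114458951, minus strand) and Bmp6 (chr13:38345107-38500302, plus strand) lie on the same chromosome far from each other, and the remaining members lie on 4 others: Inhbb (chr1:119415465-119422248, minus strand), Tgfb1 (chr7:25687002-25705077, plus strand), Gdf2 (chr14:33941039-33947198, plus strand) and Fstl1 (chr16:37776873-37836514, plus strand). Of all members only Inhba and Inhbe share sequence runs of 31 bases with each other, 4 in number. Sequence runs shared with other genes on the same strand made up at most 1.79% of the distinct runs of a member, except for Fstl1 with 6.66%. The library kit as named does not mark strand, and Inhbc overlaps Gm47200 and Bmp6 overlaps Txndc5 on the opposite strand. Inhbc shares 240 of its 1829 distinct runs with Gm47200, and Bmp6 shares 194 of its 3869 with Txndc5, whose mean level was 78.2. Reads of these overlaps could be split between the genes, so the Inhbc and Bmp6 levels are uncertain to that extent. Fstl1 shares 405 of its 4924 distinct runs with other genes on the opposite strand, 201 of them with Xdh.

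Inhbc was the most abundant member, with a mean level of 46.9 over 16 libraries, above 86.7% of the genes in the table. Inhbe followed with 16.8, then Tgfb1 with 11.9, Gdf2 with 10.4, Fst with 5.88, Inhba with 4.54, Bmp6 with 4.34 and Fstl1 with 2.24. Inhbb was lowest with 0.828 and reached 1 in only 4 libraries. Over the 16 libraries the range of each member overlapped that of its neighbour in this order, although Inhbc exceeded Inhbe within each library. Inhbe is represented by a single GENCODE transcript of 5319 bases that begins upstream of the RefSeq start, and Inhbc by a single transcript of 1859 bases, and the distance between their levels depends on these models. Gdf2 varied least, with a coefficient of variation of 11.8% over all libraries, and Fst varied most with 64.8%.

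**Figure D1:**
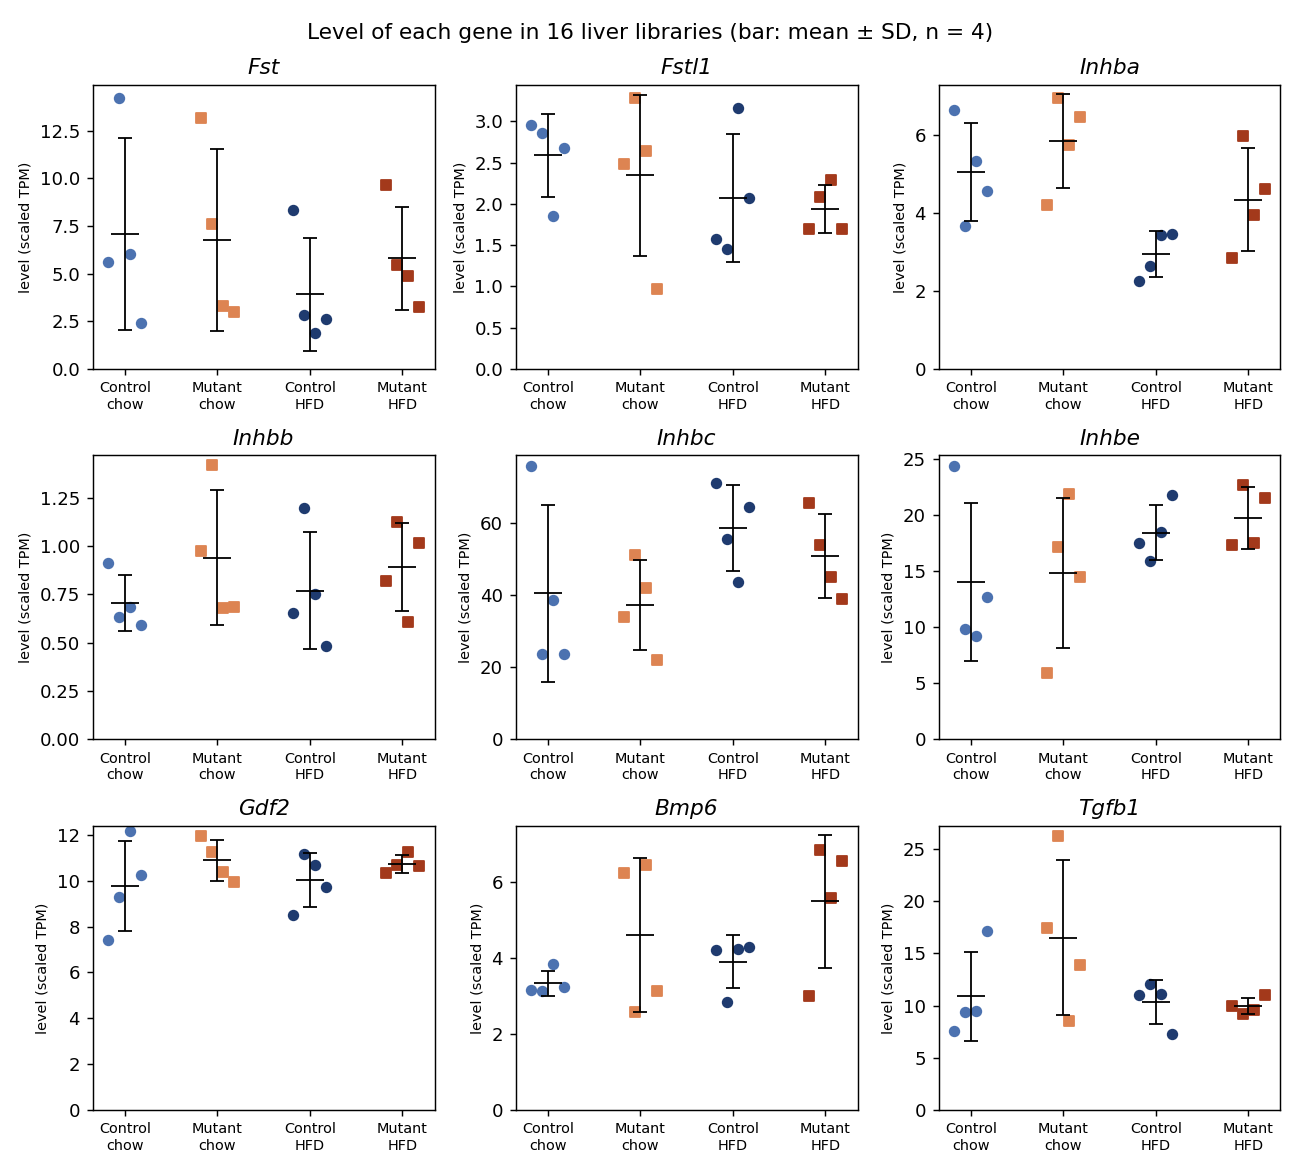
Level of each of the 9 members (y axis, scaled TPM, from 0) in the 4 groups (x axis), with 1 point per library and bars for the mean ± SD (n = 4). Inhba of controls on HFD (2.26 to 3.45) lies below Inhba of controls on chow (3.67 to 6.62), while for every other member the groups overlap in each comparison of 2 groups.

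Each contrast was fitted with limma over all 12704 genes. The number of members past an adjusted p of 0.05 was 0 in all 7 contrasts, and all tested genes gave few calls as well: 0.0236% between genotypes on chow, 0.0157% between genotypes on HFD, 0% between diets in controls and 0% in mutants, 0.063% for genotype averaged over diets, 0.134% for diet averaged over genotypes and 0% for the interaction of genotype and diet. The smallest adjusted p of a member in limma was 0.843, 0.577, 0.258, 0.723, 0.552, 0.165 and 0.895 in the same order. At an unadjusted p under 0.05, Inhba stood alone for diet in controls (1 of 9 members, against 12.9% of all genes), and Inhba, Inhbc and Inhbe for diet averaged over genotypes (3 of 9, against 14.1%). No member reached it for genotype on chow (background 6.08%), genotype on HFD (8.6%), diet in mutants (6.86%), genotype averaged over diets (8.98%) or the interaction (4.21%). The only member whose groups did not overlap was Inhba for diet in controls, where 6.36% of all genes did not overlap. For genotype on chow (3.05% of genes), genotype on HFD (2.69%) and diet in mutants (3.53%) all 9 members overlapped. In bulk liver, fewer cells of a type and less RNA per cell cannot be told apart.

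**Figure D2:**
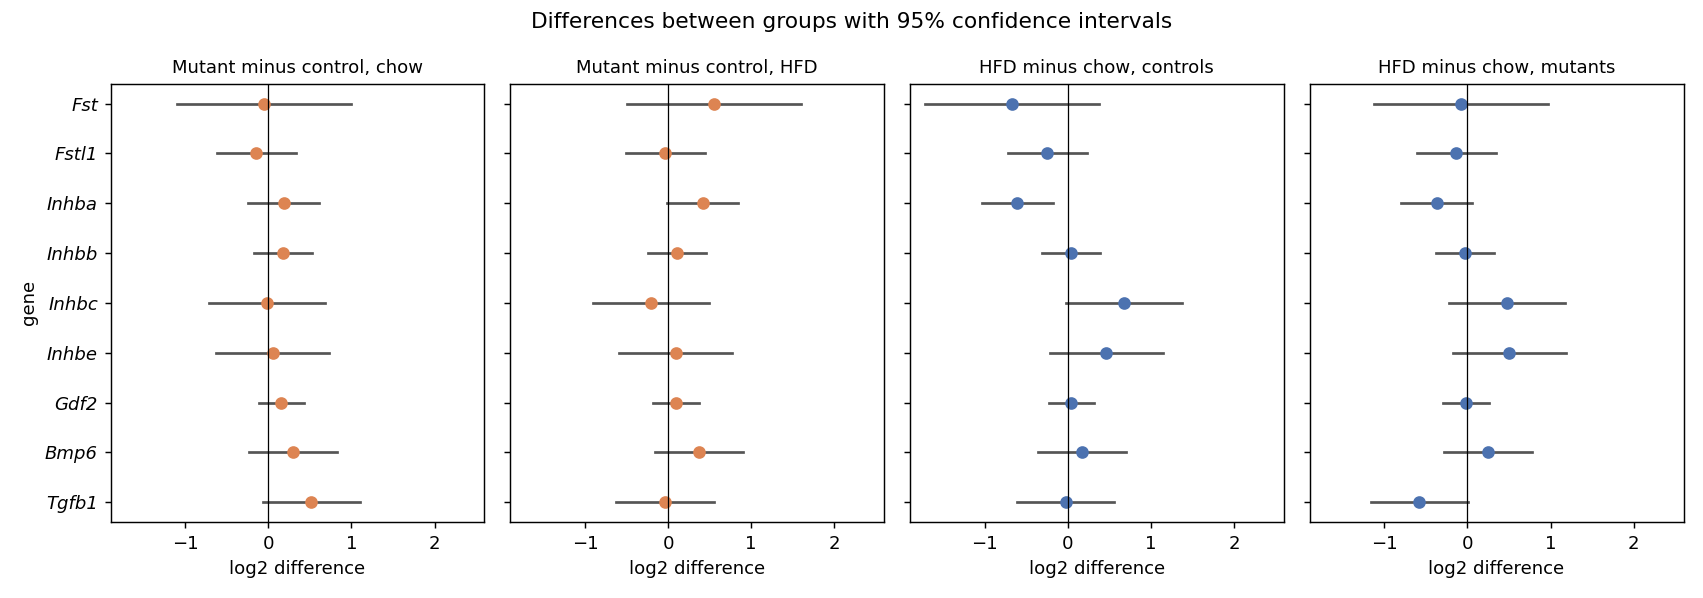
Log2 difference (x axis, on the log2(level + 1) scale) of each member (y axis) in 4 comparisons of 2 groups, with points for the limma estimate and lines for its 95% confidence interval. The interval lies away from 0 only for Inhba between diets in controls (-1.03 to -0.18).

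Among the antagonists, Fst ranged within groups as widely as between them. Its levels were 5.61, 14.2, 6.02 and 2.40 in controls on chow and 13.2, 7.62, 3.29 and 2.97 in mutants on chow. On HFD they were 8.32, 2.80, 1.85 and 2.63 in controls and 9.64, 5.45, 4.86 and 3.22 in mutants. Every group thus held at least 1 library well above its lowest, and all groups overlapped. The log2 difference between mutants and controls was -0.05 on chow (SE 0.49, limma adjusted p = 1.00) and 0.55 on HFD (SE 0.49, 95% interval -0.49 to 1.60, limma adjusted p = 0.704). Between diets it was -0.68 in controls (interval -1.72 to 0.37) and -0.07 in mutants (interval -1.12 to 0.97). Single libraries moved these values: the Fst difference between genotypes on HFD was 0.31 without mutant 1 and 0.92 without control 1 of that diet, and that between diets in controls was -0.30 without chow control 2 and -1.04 without HFD control 1.

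The 3 genes whose level followed Fst most closely, after each group's mean was taken out on the log2 scale, were Stra6l, a retinol-transport receptor gene (Pearson r = 0.936 over 16 libraries), Nfil3, a clock-controlled repressor (r = 0.932), and Arntl, the BMAL1 gene of the circadian clock (r = 0.928). Other clock genes, looked up after this was seen, had r = 0.737 for Clock, 0.81 for Npas2, -0.895 for Dbp, -0.941 for Per3, -0.949 for Tef and -0.919 for Ciart. Arntl was 1.71, 13.0, 1.91 and 0.564 in controls on chow and 11.0, 5.61, 0.953 and 1.95 in mutants on chow. On HFD it was 2.83, 1.31, 0.397 and 0.936 in controls and 2.27, 0.577, 0.272 and 0.530 in mutants. In each group the library with the highest Fst also had the highest Arntl. These values describe 16 libraries that share 1 sequencing table, and the time of day of collection is not given in the labels. The Arntl level of each library was also used as a term, an alternative chosen after the data were seen. Arntl is among the 3 genes closest to Fst in these same libraries. That choice narrows the spread left for Fst, so p-values of this fit are not a test of Fst. With the term, the log2 difference of Fst between mutants and controls was 0.78 on HFD (limma adjusted p = 0.504) and -0.30 on chow. Between diets it was then 0.92 in mutants, the opposite sign of the fit without the term (limma adjusted p = 0.578), and -0.16 in controls.

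**Figure D3:**
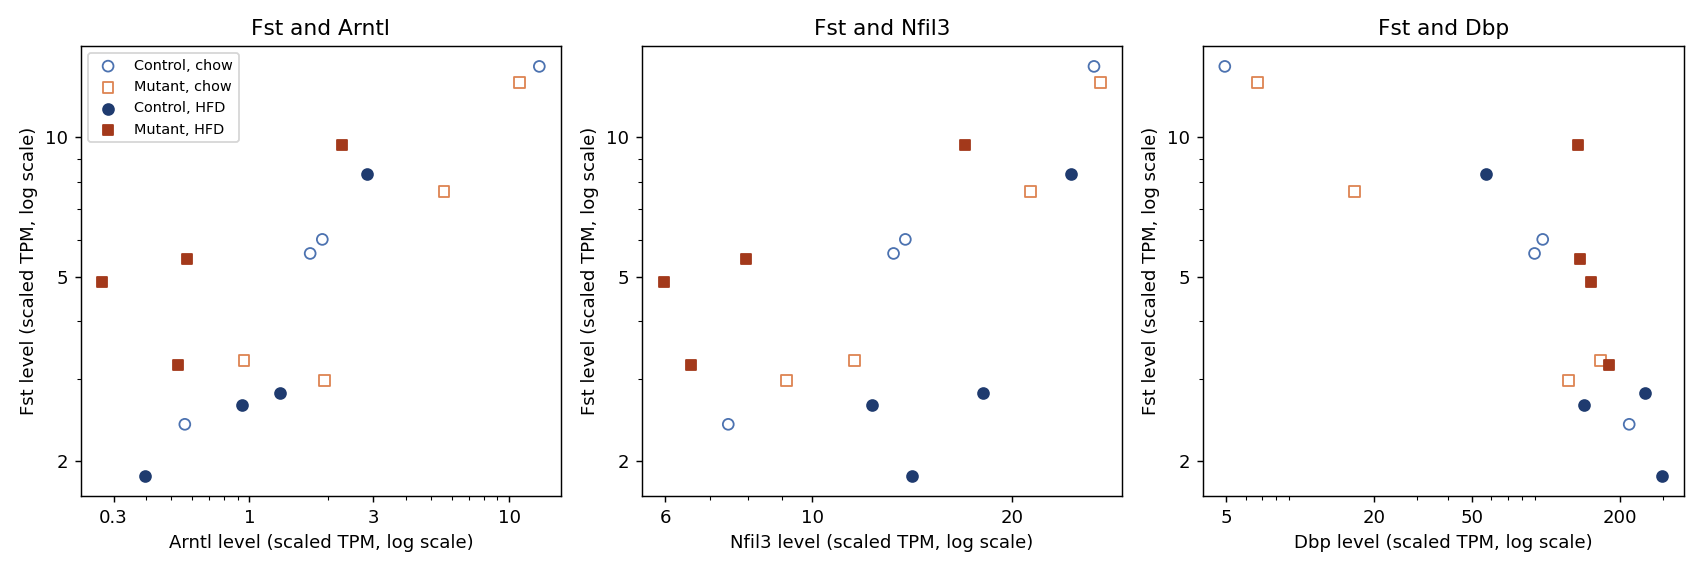
Fst level (y axis, scaled TPM, log scale) against the level of the clock genes Arntl, Nfil3 and Dbp (x axes, scaled TPM, log scale), 1 point per library, open for chow and filled for HFD, circles for controls and squares for mutants. Fst is high where Arntl and Nfil3 are high (r = 0.928 and 0.932 within groups) and where Dbp is low (r = -0.895), and on HFD mutants 2 to 4 have more Fst than controls of like Arntl.

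Fstl1, a glycoprotein related to follistatin that is made largely by stromal cells, was 0.972 to 3.28 over all libraries. Its log2 differences lay between -0.25 (diet in controls, interval -0.72 to 0.23) and -0.04 (genotype on HFD, interval -0.51 to 0.44). Within groups its closest genes were Dpy19l3 (r = 0.840), Nin (r = 0.823) and Bin2 (r = 0.813). For Fstl1, as for every other member, the closest genes were picked as those with the highest r over all genes compared. Whether their r exceeds what such a pick gives by chance was not tested. The ratio of Fst to Inhba within a library, the antagonist to the activin A subunit, had a median of 0.989 and spanned 0.461 to 3.88, and it ran from below 1 to above 3 in all 4 groups.

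Among the beta subunits, Inhba had the smallest p of the 9 members for diet in controls and for diet averaged over genotypes, while in mutants that was Tgfb1. Its levels were 6.62, 3.67, 5.33 and 4.55 in controls on chow and 2.26, 2.63, 3.42 and 3.45 in controls on HFD. All 4 controls on HFD lay below all 4 on chow, with a log2 difference of -0.61 (SE 0.20, 95% interval -1.03 to -0.18, limma adjusted p = 0.258). The exact two-sided permutation test gave p = 0.0286, the smallest that 4 against 4 libraries allows, in a family of 54 such tests over the members. In mutants the levels were 4.19, 6.94, 5.74 and 6.46 on chow and 2.83, 5.98, 3.93 and 4.59 on HFD, which overlap, with a log2 difference of -0.37 (interval -0.80 to 0.05). Without mutant 1 on HFD this was -0.22, and with the Arntl level as a term it was -0.61. Averaged over genotypes the difference was -0.49 (SE 0.14, limma adjusted p = 0.165; exact permutation p = 0.00653). With library weights, which give less weight to libraries that vary more, Inhba passed in controls (-0.64, limma adjusted p = 0.0225) and averaged over genotypes (-0.46, limma adjusted p = 0.0444), where 2264 and 680 of all genes passed.

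Inhbc and Inhbe had higher means on HFD in both genotypes. Inhbc was 75.9, 23.6, 38.8 and 23.8 in controls on chow against 71.4, 55.6, 43.7 and 64.6 on HFD, so that a single chow library lay as high as the HFD libraries. In mutants it was 34.0, 51.3, 42.1 and 21.9 on chow against 65.6, 54.0, 45.2 and 39.0 on HFD. The log2 difference averaged over genotypes was 0.57 (SE 0.23, interval 0.08 to 1.07, limma adjusted p = 0.285; exact permutation p = 0.0412). In controls it was 0.67 and without chow control 1 it was 1.02, while in mutants it was 0.48 and without chow mutant 4 it was 0.25. Inhbe was 24.4, 9.84, 9.22 and 12.7 in controls on chow against 17.5, 16, 18.5 and 21.8 on HFD. In mutants it was 5.93, 17.2, 21.9 and 14.5 on chow against 17.3, 22.7, 17.5 and 21.5 on HFD. The averaged log2 difference of Inhbe was 0.48 (SE 0.23, interval 0.00 to 0.97, limma adjusted p = 0.352; exact permutation p = 0.0588). With the Arntl level as a term it was 0.19 (unadjusted p = 0.416), and the difference in mutants went from 0.50 to 0.12 and that in controls from 0.46 to 0.26. Without chow mutant 1 the Inhbe difference was 0.31 averaged and 0.15 in mutants, and without chow control 1 it was 0.75 in controls. Neither gene differed by genotype beyond its spread, with intervals of -0.71 to 0.69 on chow and -0.91 to 0.49 on HFD for Inhbc, and of -0.63 to 0.73 and -0.59 to 0.77 for Inhbe.

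Set against each other within a library, the 4 beta-subunit genes kept their order: Inhbc made up 50.3% to 77.7% of their summed level, Inhbe 13.2% to 33.3%, Inhba 2.46% to 14.8% and Inhbb 0.532% to 2.16%. The share of Inhba was 6.14%, 9.74%, 9.85% and 10.9% in controls on chow and 2.46%, 3.49%, 5.14% and 3.82% in controls on HFD. In mutants it was 9.30%, 9.03%, 8.16% and 14.8% on chow and 3.27%, 7.13%, 5.85% and 6.95% on HFD. The share of Inhba was therefore lower in all HFD libraries than in all chow libraries of the same genotype, with means of 9.16% ± 2.08 against 3.73% ± 1.11 in controls and 10.3% ± 3.04 against 5.80% ± 1.78 in mutants (SD, n = 4). A share does not depend on how libraries were scaled to each other. It does depend on Inhbc and Inhbe, which make up most of the sum and had higher means on HFD. The level of Inhba itself overlapped between diets in mutants (4.19 to 6.94 on chow, 2.83 to 5.98 on HFD). The share of all genes that separate in this way was not computed. The share was chosen after the levels had been seen, and no test was made of it. Inhbb, the activin B subunit, had log2 differences between -0.03 and 0.17 in the 4 comparisons, at levels of 0.481 to 1.42.

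**Figure D4:**
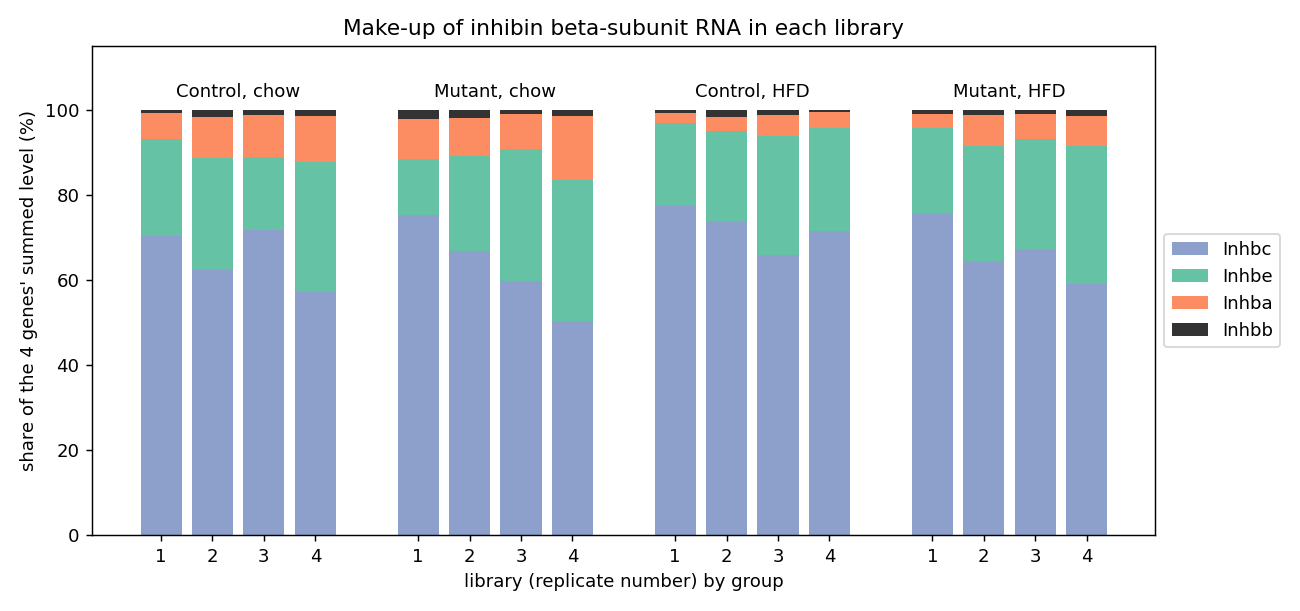
Share of each inhibin beta-subunit gene in the summed level of the 4 genes (y axis, %), with 1 stacked bar per library, grouped by genotype and diet (x axis). Inhbc is the largest part of every bar, and the Inhba part is smaller on HFD (2.46% to 7.13%) than on chow (6.14% to 14.8%), with overlap only across genotypes.

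The diet groups carry a limit that bears on these differences. The numbers in the library titles form 4 series, each within a single diet, so diet and number series cannot be told apart. On HFD the lower-numbered series contains controls 1 to 3 with mutant 1, and the higher-numbered one contains control 4 with mutants 2 to 4. Inhba was 2.26 to 3.42 in the lower-numbered and 3.45 to 5.98 in the higher-numbered HFD series, and Bmp6 was 2.85 to 4.25 and 4.30 to 6.85. These 2 of 9 members did not overlap between the series, against 35.6% of all genes. For Fst, the difference between genotypes on HFD was 0.88 with the number series as a term (limma adjusted p = 0.9996), against 0.55 without it.

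Inhba by genotype is touched by that split. On HFD the mean of Inhba was 4.33 ± 1.32 in mutants and 2.94 ± 0.589 in controls (SD, n = 4), a log2 difference of 0.42 (SE 0.20, interval -0.01 to 0.84, limma adjusted p = 0.577), and mutant 1 of the lower-numbered series, at 2.83, lay within the controls. When the number series was a term, this difference was 0.20 (unadjusted p = 0.336), and without mutant 2 on HFD it was 0.28. With library weights it was 0.55 and passed (limma adjusted p = 0.0211), as did 3926 of all genes, and the weights were lowest for mutant 1 and control 4 on HFD (0.329 and 0.228). On chow the difference was 0.18 (interval -0.24 to 0.61). The interaction of genotype and diet was 0.23 (limma adjusted p = 0.908).

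The genes closest to Inhba within groups were Gpd2, the mitochondrial glycerol-3-phosphate dehydrogenase (r = 0.877), Elovl2, an elongase of polyunsaturated fatty acids (r = 0.877), and Hacd3, a dehydratase of fatty acid elongation (r = 0.854). Those closest to Inhbc were Serpina11 (r = 0.852), Pcx, the pyruvate carboxylase gene (r = 0.841), and Zfp607a (r = 0.825). Those closest to Inhbe were Ralgps2 (r = 0.906), Cyb5d1 (r = 0.869) and Letm2 (r = 0.826), and those closest to Inhbb were Ppm1h (r = 0.856), Atp6v1b2 (r = 0.841) and Zfp90 (r = 0.836). All of these genes were picked for the highest r, and no chance level was computed for such a pick. Among the members themselves, r over 16 libraries with group means taken out ran from -0.616 (Inhbe and Gdf2) to 0.665 (Inhba and Inhbe). Fst had r = -0.567 with Inhba and -0.487 with Inhbe, Inhbb had 0.468 with Tgfb1, Inhbc had 0.452 with Inhbe, Bmp6 had -0.417 with Tgfb1, and the other pairs lay between -0.391 and 0.37.

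Of the BMP ligands, Gdf2 was the steadiest member. It was 7.40 to 12.2 in controls on chow, 9.96 to 12.0 in mutants on chow, 8.50 to 11.2 in controls on HFD and 10.3 to 11.3 in mutants on HFD. All 4 of its log2 differences lay between -0.02 and 0.16, and no 95% interval reached beyond -0.29 or 0.43. Its closest genes, again picked for the highest r with no chance level computed, were Tgfbi (r = 0.859), Art4 (r = 0.852) and Dab2ip (r = 0.828). Within groups Gdf2 had r = 0.684 with the summed stellate-cell markers, 0.707 with sinusoidal endothelium and 0.65 with Kupffer cells, the resident macrophages of the liver, and 0.00313 with hepatocytes.

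Bmp6 was 3.16, 3.13, 3.83 and 3.23 in controls on chow and 6.25, 2.57, 6.45 and 3.13 in mutants on chow. On HFD it was 4.21, 2.85, 4.25 and 4.30 in controls and 3.0, 6.85, 5.57 and 6.57 in mutants. In both diets some mutants lay above all controls and at least 1 lay among or below them. The log2 difference was 0.30 on chow (interval -0.23 to 0.83; 0.15 without mutant 1, 0.13 without mutant 3 and 0.49 without mutant 2 of that diet), 0.37 on HFD (interval -0.16 to 0.90, limma adjusted p = 0.643) and 0.33 averaged over diets (SE 0.18, limma adjusted p = 0.592; exact permutation p = 0.0959). With library weights the HFD difference was 0.62 and passed (limma adjusted p = 0.0264), as did 3926 of all genes. The weights were lowest for mutant 1 and control 4 on HFD (0.329 and 0.228). Each was the only library of its genotype in its number series. Without mutant 1 on HFD the difference was 0.59 (limma adjusted p = 0.188), and with the number series as a term it was 0.11 (unadjusted p = 0.679). The closest genes, picked in the same way with no chance level computed, were Shank3 (r = 0.853), Mrpl39 (r = 0.825) and Col13a1 (r = 0.821).

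Tgfb1 was 7.56, 9.41, 9.44 and 17.1 in controls on chow and 17.4, 26.3, 8.50 and 13.9 in mutants on chow. On HFD it was 11.0, 12.0, 11.1 and 7.24 in controls and 9.97, 9.19, 9.57 and 11.0 in mutants. The 3 highest libraries were all on chow, 2 of them mutants, and the groups overlapped. The log2 difference between mutants and controls was 0.52 on chow (interval -0.07 to 1.1, limma adjusted p = 0.843) and -0.04 on HFD, and between diets it was -0.58 in mutants (interval -1.17 to 0.00, limma adjusted p = 0.723) and -0.03 in controls. The interaction was -0.55 (SE 0.39, limma adjusted p = 0.895). Without mutant 2 on chow the difference was 0.27 between genotypes on chow and -0.33 between diets in mutants, and the interaction was -0.31. Without mutant 3 on chow the difference between genotypes on chow was 0.78, and with library weights it was 0.29.

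The genes closest to Tgfb1 within groups are known from myeloid cells: Lst1 (r = 0.945), Fes, a tyrosine kinase (r = 0.941), and Spic, a transcription factor of iron-recycling macrophages (r = 0.939). The summed level of 7 Kupffer-cell markers, all 7 measured, was 122 to 427 in controls on chow, 212 to 622 in mutants on chow, 275 to 421 in controls on HFD and 228 to 337 in mutants on HFD. It had r = 0.877 with Tgfb1 within groups, against 0.707 for 7 lymphocyte markers and -0.718 for 5 hepatocyte markers. Mutants 1 and 2 on chow, with the highest Tgfb1, also had the highest Kupffer sums (523 and 622). The summed level of 20 acute-phase genes, which hepatocytes make in inflammation, was 24967 and 128583 in these mutants and 11433 to 31310 in the other 14 libraries. The part of macrophage content or inflammation in the Tgfb1 difference was not tested.

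**Figure D5:**
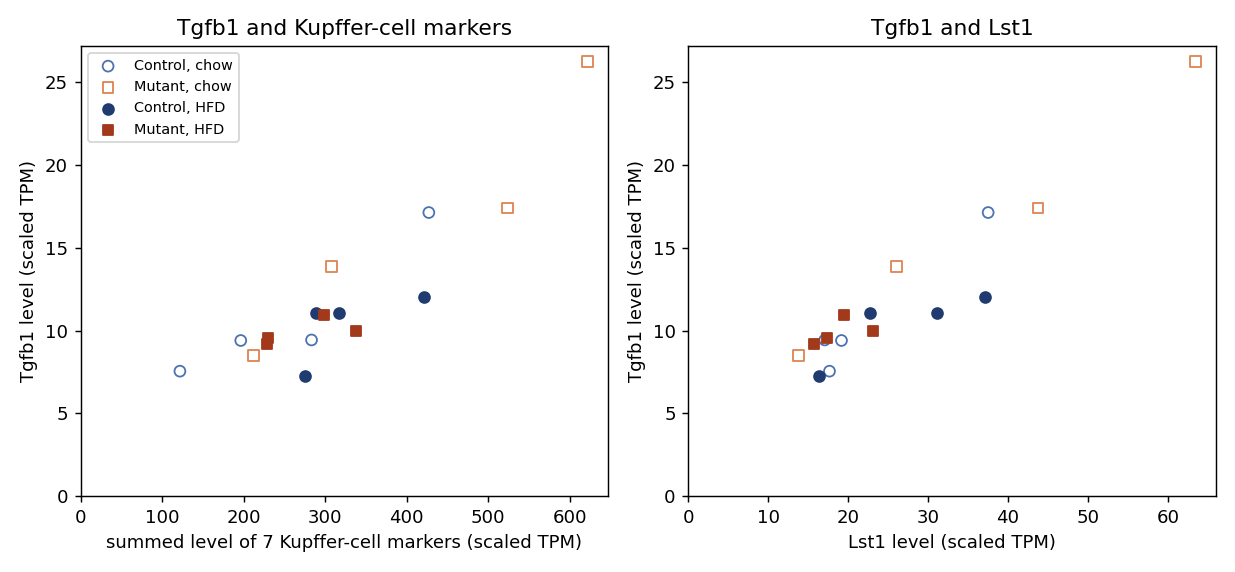
Tgfb1 level (y axis, scaled TPM) against the summed level of 7 Kupffer-cell markers and against Lst1 (x axes, scaled TPM), 1 point per library, open for chow and filled for HFD, circles for controls and squares for mutants. Tgfb1 goes up with both (r = 0.877 and 0.945 within groups), and mutant 2 on chow has the highest value on every axis.

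The receptors and intracellular parts of the pathway were read from lists of genes. Of 9 tested type I and type II receptors and 16 SMADs and their regulators, 0 passed the adjusted threshold in any of the 7 contrasts, and the same held for 6 other ligands, 12 extracellular antagonists and binders, 5 processing enzymes, 8 co-receptors and membrane regulators and 11 activin and TGF-beta response genes. Acvr2b, a type II receptor that binds activins and related ligands, was 4.82, 2.30, 4.80 and 9.09 in controls on chow and 6.91, 6.85, 5.46 and 5.12 in mutants on chow. On HFD it was 3.21, 3.31, 3.39 and 4.90 in controls and 1.88, 2.99, 2.10 and 2.79 in mutants. All 4 mutants on HFD lay below all 4 mutants on chow, with a log2 difference of -1.05 (SE 0.25, unadjusted p = 0.000782, limma adjusted p = 0.421), and in controls the difference was -0.32 (unadjusted p = 0.228). Between diets in mutants, 3.53% of all genes did not overlap. An unadjusted p under 0.05 was reached there by 6.86% of all genes and by 1 of the 9 tested receptors, Acvr2b. The value in controls was -0.05 without chow control 4 (unadjusted p = 0.82) and -0.59 without chow control 2. Averaged over genotypes it was -0.68 (limma adjusted p = 0.12), and it passed with library weights (-0.66, adjusted p from limma = 0.0332) and when control 4 on HFD was left out (-0.74, limma adjusted p = 0.0444). In these fits 680 and 396 of all genes passed, against 17 with all libraries at equal weight. The related receptor genes Acvr2a and Bmpr2, the BMP9 receptor gene Acvrl1 and its co-receptor Eng had mean levels of 6.83, 4.44, 4.81 and 46.4, and their 16 differences lay between -0.51 and 0.23 with no limma adjusted p below 0.588.

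Genes that BMP signals induce were measured as a readout near these ligands. On chow 4 of 8 tested BMP response genes had an unadjusted p under 0.05 (against 6.08% of all genes), all higher in mutants. The median log2 difference of the list was 0.46 against 0.02 over all genes, and none passed the adjusted threshold. In the same contrast 20 of 20 acute-phase genes had a difference above 0 (8 with an unadjusted p under 0.05, median 0.98), as did 7 of 7 Kupffer-cell markers (1 with such a p, median 0.68), and their part in the BMP response values was not tested. Id1, an inhibitor of differentiation factors, was 22.1, 9.54, 10.4 and 21.3 in controls and 30.7, 23.8, 27.4 and 27.1 in mutants, with no overlap (log2 difference 0.84, SE 0.35, limma adjusted p = 0.804). Smad6, an inhibitory SMAD, was 5.40, 6.22, 4.77 and 7.36 in controls and 10.4, 7.89, 9.41 and 8.59 in mutants, again with no overlap (0.54, SE 0.16, limma adjusted p = 0.636). Between genotypes on chow 3.05% of all genes did not overlap. Id3 was 29.0 to 47.8 in controls, and in mutants it was 143 and 112 in libraries 1 and 2 and 43.5 and 30.9 in libraries 3 and 4 (0.82, limma adjusted p = 0.814; 0.47 without mutant 1). Among the chow libraries, mutants 1 and 2 had the highest acute-phase sums (24967 and 128583). Hamp, the hepcidin gene, was 5117 to 7965 in controls and 7239 to 13366 in mutants (0.47, limma adjusted p = 0.804; 0.28 without mutant 1), and its near-identical copy Hamp2 has no row in the table, so the 2 genes may not be told apart. Smad7, the other inhibitory SMAD, had a difference of 0.37 with overlapping groups (0.23 without mutant 1). The remaining tested genes of the list, Atoh8, Id4 and Id2, had differences of 0.45, 0.39 and 0.01.

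On HFD the differences between genotypes were 0.30 for Id1, 0.06 for Id3, 0.13 for Smad6, 0.30 for Smad7, 0.24 for Atoh8 and 0.07 for Hamp. The value for Id1 ran from 0.09 to 0.68 when single libraries were left out. Of the 8 response genes 2 had an unadjusted p under 0.05 (against 8.6% of all genes), in opposite directions. Id2, another inhibitor of differentiation factors, was 127 to 171 in mutants and 183 to 257 in controls, with no overlap (-0.60, SE 0.16, unadjusted p = 0.00176, limma adjusted p = 0.524), as for 2.69% of all genes. Id4, of the same family, was 0.856 to 3.45 in mutants and 0.87 to 1.36 in controls (0.73, SE 0.25, unadjusted p = 0.011, limma adjusted p = 0.54). The interaction was not significant for any of them, with a limma adjusted p of 0.895 for Id1, Id2, Id3, Smad6 and Hamp, 0.906 for Id4, 0.937 for Atoh8 and 0.974 for Smad7. It was above 0 for 1 of the 8, with a median of -0.41 against -0.01 over all genes. In limma 1 of 8 had an unadjusted p under 0.05 there, against 4.21% of all genes. For genotype averaged over diets 4 of 8 had one, 3 higher and 1 lower in mutants, against 8.98% of all genes. Between diets in controls 3 of 8 had an unadjusted p under 0.05 (against 12.9% of all genes), all higher on HFD: Id3 (0.93, limma adjusted p = 0.324), Id2 (0.44, limma adjusted p = 0.279) and Hamp. Hamp was 9580 to 12483 on HFD against 5117 to 7965 on chow (0.73, SE 0.21, limma adjusted p = 0.215), with no overlap, as for 6.36% of all genes. With library weights this difference of Hamp passed (0.68, limma adjusted p = 0.0168), as did 2264 of all genes, against 0 without the weights.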

How the data were processed

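Bulk RNA sequencing of liver was measured in 16 samples (4 groups of 4), with libraries made by the NEBNext Ultra II kit and read on a NovaSeq. Per the labels, the authors quantified reads with kallisto and sleuth on mm10; versions are not given in the sources used here. The deposited values are a signal on the TPM scale, scaled between libraries by the authors, with column totals of 905897 to 1119700, so depth is unknown and no counting error can be given. Of 15544 rows, 5 carry no symbol. Values were tested as log2(value + 1) after keeping genes at 1 or more in at least 4 libraries (12704), with limma 3.58.1 in R 4.3.3 (linear model of 4 group means, trended variance, Benjamini-Hochberg adjustment over all genes, threshold 0.05). A fold change on this scale understates the change of low genes. Single members were also compared by exact two-sided permutation tests (54 in all). The fit was tested on simulated data: for genotype on HFD with 12704 genes, 74% of changes of log2 1 and 92% of log2 2 were recovered. There the noise was independent between genes and equal in all libraries, with 100 genes changed at each size. The real libraries had weights from 0.228 to 2.10, so these rates do not carry over to them. Differences as small as those of the members, at most 0.68, were not simulated. The labels do not say that samples of a group came from separate animals, so p-values measure only the spread between these samples. Members and gene lists were chosen with earlier results of these data known. The text names all members, fixed receptors and BMP response genes whatever their values, list genes past the threshold (0 were), and for each member the 3 genes with the highest correlation within groups; clock genes beyond these were chosen after their values were seen. No chance level was computed for these highest correlations. Positions are from GENCODE M21 (GRCm38) and promoters from RefSeq. Marker lists of liver cells were summed per library: hepatocyte, stellate, endothelial, Kupffer, bile duct, lymphocyte, mesothelium and red-cell markers were present, while 4 of 5 adipose, 3 of 5 pancreas and 2 of 4 skeletal muscle markers have no row, and integrated stress response and fasting lists had 0 genes past the threshold, as did the acute-phase list and every marker list. Alternatives covered scaling, filter, pseudocount, library weights, the groups fitted, the number series, the Arntl level and each library left out.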

Additional observations from a re-analysis of the deposited data

Results flagged for a closer look

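Of 36 sets of 4 libraries (9 genes in 4 groups), 3 held a library far from the other 3, where chance gives about 1 in 20. Fst in controls on HFD was 8.32 in replicate 1, against 1.85 to 2.80 in the others, and this library also had the highest Arntl of its group (2.83) and an acute-phase sum of 31310, the highest on HFD. Bmp6 in controls on chow was 3.83 in replicate 3, against 3.13 to 3.23. Bmp6 in controls on HFD was 2.85 in replicate 2, against 4.21 to 4.30.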

How the results depend on the processing

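No paired analysis was possible because the labels give no replicate numbers. In no alternative except library weights did a member pass the adjusted threshold; with library weights 2 passed for genotype on HFD (Inhba and Bmp6), 1 for diet in controls (Inhba) and 1 for diet averaged over genotypes (Inhba), and leaving out each library in turn gave 0 throughout. Library weights gave 3926, 2264 and 680 genes past the threshold in these contrasts, against 2, 0 and 17 without them. Of 162 tested genes on the pathway and marker lists, 0 passed in any contrast with all libraries at equal weight. Library weights let 39 pass between genotypes on HFD, 16 between diets among controls, 1 for genotype averaged over diets and 5 for diet averaged over genotypes. Leaving out mutant 1 on HFD let 1 pass between genotypes on HFD (range 0 to 1) and 1 averaged over diets (0 to 1), and leaving out control 4 on HFD let 2 pass between diets among controls (0 to 2) and 2 averaged over genotypes (0 to 2). For single genes, 990 alternative values kept direction and side of the threshold, 7 passed it and 56 turned sign; the cause was not tested. With a term for the number series, the sign turned for Fst genotype on chow (0.25), Inhbc genotype on chow (0.0447), Inhbe genotype on chow (-0.0288), Inhbe genotype on HFD (-0.0432), Tgfb1 genotype on HFD (0.11), Id1 genotype on HFD (-0.0299), Id3 genotype on HFD (-0.0439), Hamp genotype on HFD (-0.0412). With library weights, the sign turned for Fst diet in mutants (0.0548), Fstl1 genotype on HFD (0.0147), Fstl1 diet in mutants (0.054), Inhbb genotype on HFD (-0.0143), Inhbb diet in mutants (0.0717), Gdf2 diet in mutants (0.0389), Tgfb1 diet in controls (0.11), Smad6 genotype on HFD (-0.0631). With the Arntl level as a term, the sign turned for Fst diet in mutants (0.92), Inhbb diet in mutants (0.0354), Tgfb1 diet in controls (0.0305). With each library scaled to the same total, the sign turned for Fstl1 genotype on HFD (0.0183), Inhbb diet in controls (-0.0363), Inhbe genotype on chow (-0.0239), Gdf2 diet in controls (-0.12), Tgfb1 genotype on HFD (0.0403). With median-of-ratios size factors, the sign turned for Gdf2 diet in mutants (0.00489). Leaving out 1 library each gave ranges of log2 difference that span 0 for Fst genotype on chow (-0.41 to 0.32), Fst diet in mutants (-0.33 to 0.28), Fstl1 genotype on chow (-0.28 to 0.0911), Fstl1 genotype on HFD (-0.13 to 0.12), Inhbb diet in mutants (-0.0912 to 0.0487), Inhbc genotype on chow (-0.21 to 0.34), Inhbe genotype on chow (-0.16 to 0.41), Gdf2 diet in controls (-0.0694 to 0.15), Gdf2 diet in mutants (-0.0544 to 0.0264), Tgfb1 genotype on HFD (-0.18 to 0.0368), Tgfb1 diet in controls (-0.16 to 0.20), Id3 genotype on HFD (-0.0959 to 0.24), Hamp genotype on HFD (-0.00648 to 0.17). With a pseudocount of 5 the differences of low genes shrank, for example to -0.33 for Inhba diet in controls and 0.30 for Fst genotype on HFD. Depth limits could not be given, since the values hold no counts, and Inhbb fell below the filter on low values in some fits with a library left out, which then gave no value for it.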
